A study of Homo sapiens with 2 samples.

Results

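The genes described here are the expressed LINC genes, the long intergenic noncoding RNA genes that carry a LINC number as their symbol in the deposited tables. A gene was a member if its symbol began with LINC followed by digits and if its FPKM was at least 1 in either library. FPKM is the read coverage scaled to transcript length and library size. Of 27685 genes listed, 1571 had such a symbol and 142 of these (9.04%) passed, while 64.2% of the 19357 coding genes did. The remaining LINC genes were mostly silent: 1093 had an estimated count of 0 in both libraries. Joined symbols were counted too, so the members include LINC00680-GUSBP4, which overlaps the member LINC00680. The members were selected on their FPKM, so their levels and the split between the cell lines are a description and carry no test.

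The data comprised 1 RNA-seq library of H2087 cells and 1 of H596 cells, both labelled as lung adenocarcinoma cell lines and both untreated. The cells were grown in RPMI medium with fetal bovine serum and antibiotics, and libraries were made from total RNA with a stranded mRNA kit, which selects polyadenylated RNA. The estimated counts summed to 46961500 in H2087 and 55387847 in H596. With 1 library for each line, the spread between cultures is unknown, and every interval given for an FPKM is a 95% Wilson interval of the share of counts, carried over to FPKM. The range in parentheses after a ratio divides the opposite ends of the 2 FPKM intervals, so it has no stated level. Both cover counting error only.

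Long noncoding RNAs are transcribed by RNA polymerase II, and many are spliced and polyadenylated like mRNAs. They are known for lower levels and narrower expression across cell types than mRNAs. Some act on the gene next to them, some act elsewhere in the cell, and some loci first named as noncoding were later found to encode small proteins. For most LINC genes no function is known.

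The start regions of 5 members are shown because they belong to leading genes of each kind and differ widely in base composition. They are the 2 members with the highest FPKM limited to H596 (LINC01133 and LINC01389), 1 of those limited to H2087 (LINC00960), and the 2 highest that were nearly equal in both lines (LINC00998 and LINC00339). Each is the hg19 reference sequence from 250 bases before to 50 bases after the start of the main transcript, written 5′ to 3′ on the strand of the gene, with CG dinucleotides in capitals. LINC01133 lies at chr1:159930764-159931063 on the plus strand, LINC01389 at chr1:47902940-47903239 on the minus strand, LINC00960 at chr3:75721292-75721591 on the plus strand, LINC00998 at chr7:112758588-112758887 on the minus strand and LINC00339 at chr1:22351747-22352046 on the plus strand.
LINC01133: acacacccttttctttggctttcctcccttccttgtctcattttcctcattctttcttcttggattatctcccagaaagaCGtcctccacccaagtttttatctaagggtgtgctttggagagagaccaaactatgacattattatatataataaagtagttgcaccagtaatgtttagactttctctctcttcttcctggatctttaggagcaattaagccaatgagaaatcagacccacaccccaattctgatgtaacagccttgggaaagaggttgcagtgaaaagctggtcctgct
LINC01389: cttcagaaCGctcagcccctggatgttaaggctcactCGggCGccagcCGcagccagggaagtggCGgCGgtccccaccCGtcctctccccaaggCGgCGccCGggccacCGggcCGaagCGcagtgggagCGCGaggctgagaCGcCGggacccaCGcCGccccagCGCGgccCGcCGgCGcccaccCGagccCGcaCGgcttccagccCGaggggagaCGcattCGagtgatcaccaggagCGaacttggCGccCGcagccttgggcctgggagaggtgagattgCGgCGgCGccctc
LINC00960: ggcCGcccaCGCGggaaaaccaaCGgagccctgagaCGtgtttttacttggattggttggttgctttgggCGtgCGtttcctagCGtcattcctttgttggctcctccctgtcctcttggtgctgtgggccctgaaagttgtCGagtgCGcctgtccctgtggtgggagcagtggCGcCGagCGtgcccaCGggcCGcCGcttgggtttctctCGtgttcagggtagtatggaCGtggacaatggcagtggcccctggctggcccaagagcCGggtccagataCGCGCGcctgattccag
LINC00998: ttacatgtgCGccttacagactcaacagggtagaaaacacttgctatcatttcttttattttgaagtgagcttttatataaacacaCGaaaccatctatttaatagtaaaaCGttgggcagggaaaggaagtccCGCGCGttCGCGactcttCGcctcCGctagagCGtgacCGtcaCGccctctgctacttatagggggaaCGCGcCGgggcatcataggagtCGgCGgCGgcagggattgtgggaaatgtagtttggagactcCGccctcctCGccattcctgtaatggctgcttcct
LINC00339: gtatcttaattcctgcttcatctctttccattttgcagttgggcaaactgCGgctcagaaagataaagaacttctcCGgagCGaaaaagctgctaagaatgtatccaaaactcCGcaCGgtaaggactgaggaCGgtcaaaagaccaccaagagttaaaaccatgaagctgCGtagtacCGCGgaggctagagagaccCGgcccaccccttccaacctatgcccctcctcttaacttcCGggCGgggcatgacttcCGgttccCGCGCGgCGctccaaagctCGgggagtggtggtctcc
The window of LINC01133 held 1 CG dinucleotide at a GC content of 41.3%, and that of LINC01389 held 36 at 74.0%. The other windows lay between them, with 22 in LINC00960, 21 in LINC00998 and 18 in LINC00339.

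The labelled cell type was checked with marker genes. H2087 had FPKM values of 110 for NKX2-1, the lineage factor of the distal lung, 21.9 for NAPSA and 82.9 for the surfactant gene SFTPA1. In H596 these were 0.508, 0.0645 and 0, while the squamous markers TP63, KRT5, KRT6A and DSG3 stood at 55.2, 106, 53.7 and 33.9. The alveolar and adenocarcinoma list thus had 4 of 6 genes at 1 or more in H2087 and 1 of 6 in H596, and the squamous list had 1 of 5 and 5 of 5. From the first list, KRT7 was high in both lines, at 791 in H2087 and 608 in H596, while SFTPB and SFTPC were below 1 in both. Apart from KRT7, these markers do not bear out the label of H596, and the library is called H596 throughout. The summed FPKM of the squamous list was 1.66 in H2087 and 250 in H596. The part of this difference in the LINC values was not tested. All 5 epithelial genes were expressed in both lines, and the leukocyte genes PTPRC and CD3E were at 0 in both.

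LINC genes were expressed at low levels. The median of the higher of the 2 FPKM values was 2.78 for members and 13.9 for expressed coding genes. For 46 members the higher value was below 2, for 23 it was at least 10, for 7 at least 20, and for 0 at least 100. Members took 0.114% of the estimated counts in H2087 and 0.139% in H596. The 5 highest held 30.0% of the summed member FPKM in H2087 and 35.4% in H596. At 1 or more there were 99 members in H2087 and 101 in H596, of which 58 were shared, 41 passed only in H2087 and 43 only in H596.

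**Figure D1:**
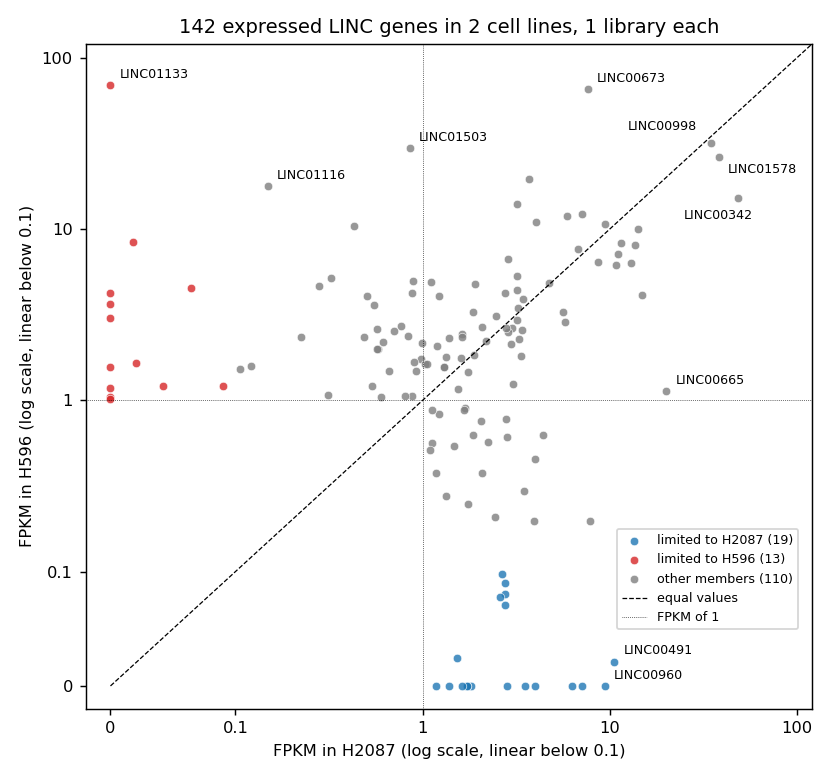
FPKM of the 142 expressed LINC genes in H2087 (horizontal axis) and H596 (vertical axis), 1 point per gene, on log axes that are linear below 0.1. The 13 genes limited to H596 lie at the left edge with LINC01133 at the top, the 19 limited to H2087 lie along the bottom, and LINC00998 and LINC01578 lie near the dashed line of equal values.

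The highest LINC gene was not the same in the 2 cell lines. LINC01133 (chr1:159931014-159948876, plus strand), a noncoding RNA studied in several epithelial cancers, was listed at 0 in H2087 and at an FPKM of 69.0 (67.0 to 71.0) in H596, from 0 and 4454 estimated counts. A count of 0 allowed an FPKM of up to 0.0550 in H2087, taking 3 counts as the limit, so LINC01133 was at least 1254-fold higher in H596. It had the highest FPKM of all members in H596 and was among the silent ones in H2087.

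LINC00673 (chr17:70399463-70588945, minus strand), studied in pancreatic and lung cancer, stood at 7.60 (7.10 to 8.13) in H2087 and 65.7 (64.3 to 67.1) in H596. LINC00342 (chr2:96472800-96492729, minus strand) led in H2087 with 48.1 (47.0 to 49.3), against 15.2 (14.7 to 15.8) in H596. These members were well expressed in both lines with ratios of 8.65 and 3.16 in opposite directions.

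Some of the highest members have a known partner or product. LINC01578, now named CHASERR, is a noncoding RNA known to restrain its neighbour CHD2, which encodes a chromatin remodeller. Its FPKM was 38.3 in H2087 against 26.4 in H596, while CHD2, 1574 bases away, had 31.5 and 31.9. LINC00998, now SMIM30 and annotated as coding a small membrane protein, had 34.5 (33.0 to 36.2) and 31.8 (30.4 to 33.3). Its intervals overlapped, and its difference of log2(FPKM + 1), H596 minus H2087, was −0.11, or 0.06 when TPM was used. LINC00116, now MTLN, which encodes a mitochondrial microprotein, had 13.0 and 6.33, and LINC00094, now BRD3OS, had 3.18 and 5.31. These 3 were the members that RefSeq now lists as protein coding, and 25 of the 140 members found in RefSeq by gene ID have another symbol there.

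Limited to 1 cell line was taken to mean an FPKM of at least 1 in one library and below 0.1 in the other. By this rule 19 members (13.4%) were limited to H2087, where 3.59% of all 13793 genes that reached an FPKM of 1 in either library were. Limited to H596 were 13 members (9.15%), where 2.97% of those genes were. The same FPKM values chose the members and made these calls, and a gene expressed in 1 line only could enter only through that line. In the other library 12 of the 19 and 8 of the 13 had 0 counts, 6 of the 32 had 1 to 3 counts, and 6 had more. Another 52 members lay in between, with 0.1 to 1 in the lower line, of which 22 were higher in H2087 and 30 in H596.

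**Figure D2:**
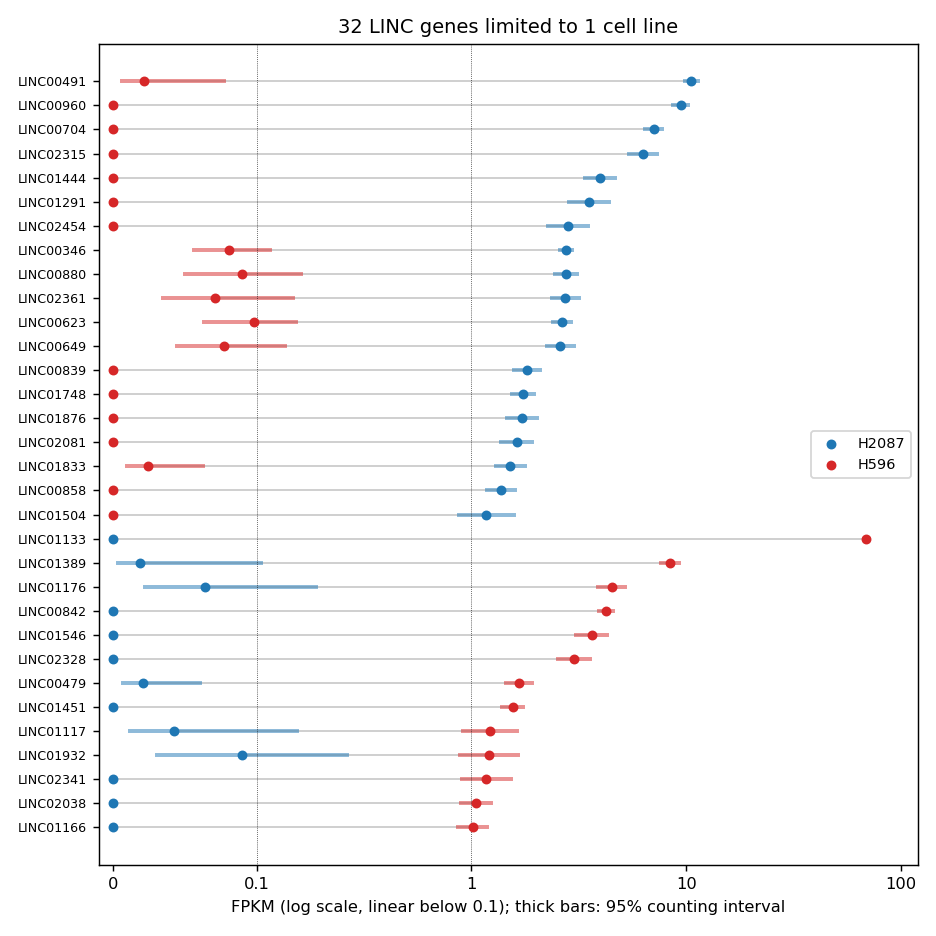
FPKM of the 32 LINC genes limited to 1 cell line, with H2087 in blue and H596 in red, on a log axis that is linear below 0.1. Thick bars are 95% counting intervals, drawn where the count was above 0. LINC01133 at 69.0 stands far to the right of the others, which reach at most 10.6.

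The genes limited to H2087 were led by LINC00491, with an FPKM of 10.6 (9.84 to 11.3) in H2087 and 0.0212 from 2 counts in H596, a ratio of 498 (127 to 1946). LINC00960 (chr3:75721432-75728454, plus strand) had 9.42 and 0, at least 236-fold. LINC00704 (chr10:4692377-4720262, minus strand), also called MANCR and studied in breast cancer, had 7.06 and 0, at least 186-fold. In all 3 the H2087 value lay well clear of the H596 value.

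LINC02315 (6.31), LINC01444 (3.97), LINC01291 (3.51) and LINC02454 (2.82) followed in H2087, each with 0 counts in H596. LINC00346, described elsewhere as regulated by p53 and now named PRECSIT, had 2.76 in H2087 and 0.0807 in H596. LINC00880, LINC02361, LINC00623 and LINC00649 were similar, at 2.60 to 2.76 in H2087 and 0.0713 to 0.0983 in H596. These last 5 are low but detected in H596, with 7 to 29 counts each. The other 7, namely LINC00839, LINC01748, LINC01876, LINC02081, LINC01833, LINC00858 and LINC01504, ranged from 1.17 to 1.81 in H2087, and LINC01833 alone among them had counts in H596, 4 in all.

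The genes limited to H596 were fewer by this rule, but not when at most 3 counts were allowed in the other library, which left 13 for each line. LINC01389 (chr1:47846468-47902989, minus strand) had an FPKM of 0.0184 from 1 count in H2087 and 8.41 (7.63 to 9.26) in H596, a ratio of 456 (73.1 to 2848). LINC01176 (chr7:30430501-30443670, plus strand) had 0.0641 from 3 counts and 4.50, a ratio of 70.2 (20.7 to 239). LINC00842 (chr10:47096454-47151400, minus strand) had 0 and 4.22 (3.92 to 4.55), at least 194-fold.

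The values of the next genes were smaller. LINC01546 had 0 and 3.64, LINC02328 had 0 and 3.01, LINC00479 had 0.0205 and 1.66, and LINC01451 had 0 and 1.56. LINC01117, LINC01932, LINC02341, LINC02038 and LINC01166 were between 1.01 and 1.22 in H596. The median FPKM in the expressing line was 1.66 for the genes limited to H596 and 2.74 for those limited to H2087.

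Several limited genes lie on top of other listed genes, so their reads may not be separable. Of the 32, 9 overlapped another listed gene and 1 overlapped a coding gene. LINC00842 overlaps the pseudogene HNRNPA1P33 on the same strand, whose FPKM was 0.120 in H2087 and 76.3 in H596. LINC01389 overlaps FOXD2-AS1 on the same strand (2.12 and 3.06) and FOXD2, which encodes a forkhead factor, on the opposite strand (0.352 and 2.96). LINC02454 overlaps LOC100507065 on the opposite strand (9.57 and 0). It is not stated whether the counting used strand.

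The threshold of 1 cut through a continuous range. Just inside it were LINC01232 (highest FPKM 1.06), LINC00235 (1.05), LINC02038 (1.05), LINC02246 (1.04) and LINC01166 (1.01). Just outside were LINC01004 (0.995), LINC01515 (0.976), LINC01207 (0.967), LINC01881 (0.967) and LINC01125 (0.946).

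Because low genes fall below 0.1 more readily, the shares were compared by level. Among genes whose higher FPKM was 1 to 2, 14 of 46 members (30.4%) and 29.7% of coding genes were limited to 1 line. At 2 to 5 it was 12 of 61 (19.7%) and 13.0%. At 5 to 20 it was 5 of 28 (17.9%) and 3.84%, and at 20 or more 1 of 7 (14.3%) and 1.32%. The shares were thus alike for the lowest genes and higher in members above an FPKM of 2, with small numbers in the upper levels. Antisense genes, another noncoding class, had 17.3%, 9%, 9.09% and 5.26% in the same levels.

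**Figure D3:**
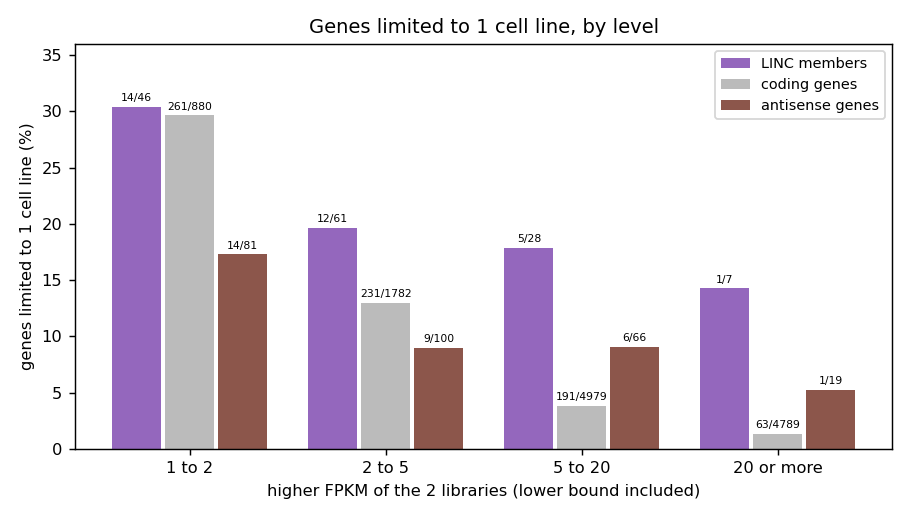
Percent of genes limited to 1 cell line (vertical axis) by the higher FPKM of the 2 libraries (horizontal axis), for LINC members, coding genes and antisense genes, with the number limited over the number of genes above each bar. The bars of members and coding genes are level at 1 to 2 (30.4% and 29.7%) and part at 5 to 20 (17.9% and 3.84%).

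On the scale of log2(FPKM + 1), which understates the change of low genes, 36 members (25.4%) were at least 2-fold higher in H596, where 18.5% of the 13793 genes were. At least 2-fold lower were 33 members (23.2%), where 15.0% of those genes were. The balance turned with the scaling, to 31 higher and 34 lower under TMM and to 29 and 34 after centring on the median of all genes. The other 73 lay within 2-fold, and the counting intervals did not overlap for 119 of the 142, where this held for 87.9% of the 13793 genes. The median difference was 0.11 for members, 0.11 for all expressed genes and 0.10 for coding genes. After TMM scaling the median of all genes was −0.01. The median size of the difference was 0.95 for members, 0.76 for antisense genes and 0.67 for coding genes. Of the antisense genes, 25.9% were at least 2-fold higher in H596 and 13.2% at least 2-fold lower. Where the higher FPKM was 1 to 2, 37.0% of members, 23.5% of antisense genes and 36.5% of coding genes were at least 2-fold different. At 2 to 5 it was 55.7% of members and 38% of antisense genes. At 5 to 20 it was 46.4% and 50%, and at 20 or more, with 7 members, 71.4% and 73.7%. Coding genes were below members at each level above 2.

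Of the 58 members at 1 or more in both lines, 48 lay within 2-fold on the scale of log2(FPKM + 1), 7 were higher and 3 lower in H596. Requiring 1 in both lines removes many large differences, and the share over all such genes was not counted. On this scale LINC00116, at 13.0 in H2087 and 6.33 in H596, counted as within 2-fold. The largest differences among genes not limited to 1 line were in those with one low value. LINC01503 (chr9:132099202-132109756, plus strand), known from squamous cell carcinoma, had an FPKM of 0.858 (0.608 to 1.21) in H2087 and 29.6 (27.96 to 31.25) in H596, a ratio of 34.5. LINC01116 (chr2:177494309-177502302, minus strand) had 0.149 from 8 counts and 17.8 (16.7 to 18.9), a ratio of 119 (56.8 to 249). LINC01279 had 0.431 and 10.4.

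In the other direction, LINC00665 (chr19:36803963-36822620, minus strand), studied in lung and liver cancer, had 20.02 (18.9 to 21.2) in H2087 and 1.13 (0.898 to 1.43) in H596, a ratio of 17.7. LINC02085, also called RDUR and known from antiviral responses, had 7.78 and 0.197. LINC00467 had 14.8 and 4.09. LINC01278, on the X chromosome, was again higher in H596, with 3.72 and 19.6, as was LINC00667, with 3.19 and 13.9.

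The even end of the range included LINC00339 (9.41 and 10.7), whose nearest expressed coding gene is CDC42, LINC00963 (6.76 and 7.66) and LINC00938 (4.73 and 4.80). Their counting intervals overlapped. The difference of LINC00938, 0.02, turned to −0.09 under TMM scaling and under centring on the median of all genes.

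A list of 34 LINC names known from cancer work was looked up. Of the 29 listed in the table, 13 were members, 7 of them at least 2-fold higher in H596, 4 at least 2-fold lower and 2 within 2-fold, where 25.4% and 23.2% of all members and 18.5% and 15.0% of the 13793 genes were higher and lower. The median difference over the 13 members of the list was 1.20, beside 0.11 over all expressed genes. Over all 29 listed names, 16 of them not members, it was 0.0029, beside 0.036 over all genes with any count. The 7 included LINC00857, which had 4.04 in H2087 and 11.0 in H596, and LINC00662, with 0.570 and 2.62. The 4 lower ones were LINC00467, LINC00346, LINC00941 (2.43 and 0.210) and LINC01833.

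The 16 listed names that were not members stayed below 1 in both lines. LINC00261, known from endoderm development, had 0.734 in H2087 and 0.00714 in H596. LINC00460 had 0.910 and 0. LINC00511 had 0.262 and 0.736, and LINC00959 had 0 and 0.685. LINC00473 and LINC00668 had 0 counts in both.

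The nearest coding gene with an FPKM of at least 1 in either library was used as a measure that did not choose the members. Of the 69 members at least 2-fold different, 41 (59.4%) had a neighbour with a difference of the same sign. For coding genes at least 2-fold different and their own nearest coding gene it was 66.6% of 4116. The share was 26 of 36 (72.2%) for members higher in H596, against 69.1% of such coding genes, and 15 of 33 (45.5%) for members lower in H596, against 63.6%. Of all expressed coding genes, 54.5% had a difference above 0 and 45.5% below 0, so the neighbours of the lower members had that sign as often as coding genes in general. Across all 142 members the Pearson correlation of the differences was 0.32 and the Spearman correlation 0.34. All points share the same 2 libraries, and 5 coding genes were each the neighbour of 2 members, as MTX2 was of LINC01116 and LINC01117.

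**Figure D4:**
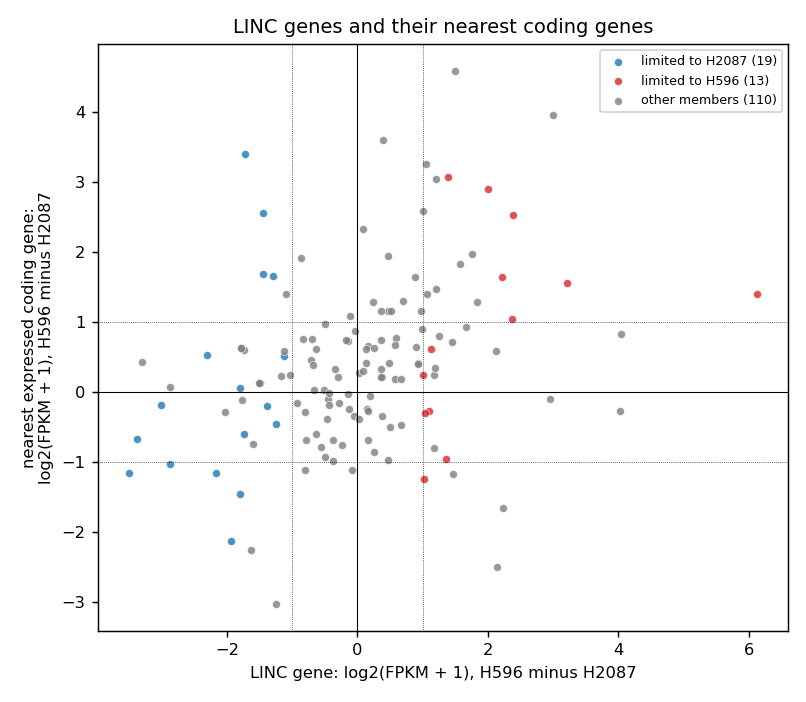
Difference of log2(FPKM + 1), H596 minus H2087, of each of the 142 LINC genes (horizontal axis) and of its nearest expressed coding gene (vertical axis), with dotted lines at a 2-fold difference. Of the 13 genes limited to H596 (red), 7 have a neighbour at least 2-fold higher in H596, while the 19 limited to H2087 (blue) are spread on both sides of 0.

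The neighbours of limited genes were examined next. Of the 13 limited to H596, 7 had a neighbour at least 2-fold higher in H596, and the median neighbour difference was 1.04, where 18.1% of expressed coding genes were that much higher and their median difference was 0.10. RIPK4, a kinase of keratinocyte differentiation 23594 bases from LINC00479, stood at 6.96 in H2087 against 65.7 in H596. FLRT2, 305982 bases from LINC02328, had 0.0101 and 6.53. IGSF9, 15628 bases from LINC01133, had 2.84 and 9.10. Neighbours also had to reach an FPKM of 1 in either library. FLRT2, MXRA5 (0 and 2.12), GPRIN2 (0.487 and 7.60) and FOXD2 (0.352 and 2.96) did so only in H596, where they were high. FOXD2 also overlaps LINC01389. IGSF9, RIPK4 and NOD1 (3.65 and 8.54) reached 1 in both lines. Of the 19 limited to H2087, 5 had a neighbour at least 2-fold lower in H596, where 15.0% of coding genes were, and the median was −0.19.

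HMGA2, an architectural chromatin protein 211473 bases from LINC02454, had 40.0 in H2087 and 8.33 in H596, and HK2, which encodes hexokinase, beside LINC01291, had 35.2 and 15.1. NR4A2, a nuclear receptor gene 69501 bases from LINC01876, had 0.581 and 8.33. NFIA, a transcription factor gene 454589 bases from LINC01748, had 1.49 and 7.01. Both went the other way from their LINC genes. Outside the limited genes, CCDC80, which encodes a secreted matrix protein 2417 bases from LINC01279, had 11.0 and 185, and TRAF5, an adaptor of tumor necrosis factor receptors 7811 bases from LINC00467, had 4.15 and 0.0777.

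Limited genes lay further from coding genes than shared ones. The median distance to the nearest expressed coding gene was 58322 bases for the 32 limited and 20482 for the 58 shared. Within 10000 bases or overlapping were 3 of 32 and 23 of 58, and over 100000 bases away were 11 of 32 and 8 of 58. Divergent pairs, on opposite strands with starts within 1000 bases of a coding start, were seen for 12 of 137 members with a known strand. They were 0 of the 32 limited members and 5 of the 55 shared members with a strand. For LINC00476, LINC01560 and LINC01481 the starts overlap instead of pointing apart. Neither the distances nor these pairs were counted for coding genes in general. In all 12 the coding partner had the higher FPKM in both libraries. The signs of the differences were the same in 6 of the 12.

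LINC01547 and LINC00894 show the range of these pairs. LINC01547, whose start lies 84 bases from that of FAM207A, had 0.874 in H2087 and 4.20 in H596, while FAM207A had 34.7 and 14.7. LINC00894 had 1.297 and 1.56, and its partner CXorf40B had 26.7 and 21.8. Members also lay near each other: LINC01116 and LINC01117, 180 bases apart on opposite strands, were both higher in H596. LINC00667 and LINC00526 were 71 bases apart, with LINC00526 at 2.48 and 3.11. LINC00115 and LINC01128, 69 bases apart on opposite strands, differed in opposite directions, by −0.17 and 0.35.

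The base composition of the start regions was compared over the same 300-base window as the sequences shown above, for the 137 members with a strand. A window was called CpG-rich at a GC content of at least 50% and an observed over expected CpG ratio of at least 0.6. This held for 11 of 32 limited members (34.4%), 33 of 55 shared members (60.0%), 23 of 50 in between (46.0%) and 78.4% of expressed coding genes. Coding genes showed the same order, with 49.7% of those limited to 1 line and 82.3% of those shared. The median ratio was 0.395 for limited, 0.576 for in-between and 0.777 for shared members. The range within each group was wide, as the windows of LINC01133 and LINC01389 show.

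**Figure D5:**
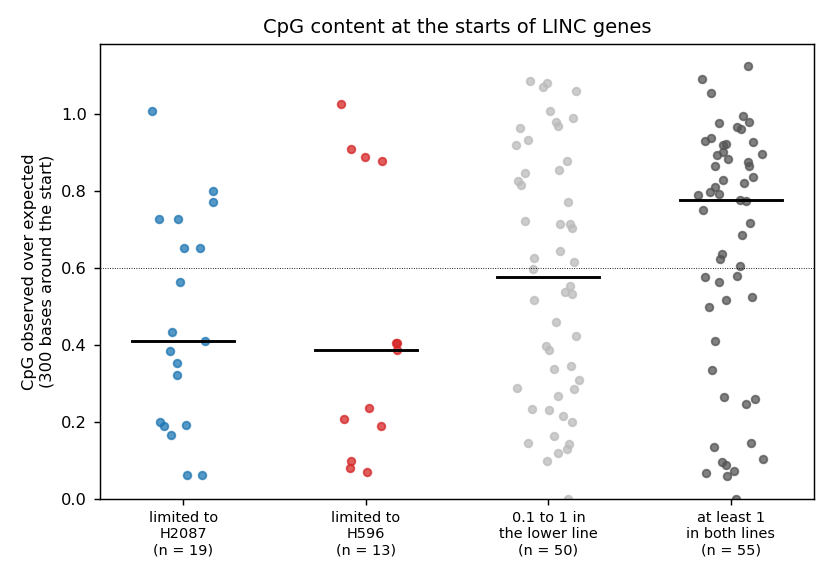
Observed over expected CpG ratio in the 300 bases around the start of each LINC gene (vertical axis) by where the gene was expressed (horizontal axis). Each point is 1 gene, black lines are medians, and the dotted line marks 0.6. The medians are 0.409 for genes limited to H2087, 0.385 for those limited to H596, 0.576 in between and 0.777 for genes at 1 or more in both.

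Motifs were searched as exact letters on both strands. TATAAA occurred in 18 of the 137 windows (13.1%), against 6.50% of the windows of all expressed genes. TGACTCA, the letters bound by AP-1, occurred in 10 (7.30%), against 3.12%, and one of these was LINC00704. GGGCGG was in 48.2%, against 68.9%, CCAAT in 38.7%, against 36.4%, and CACGTG in 7.30%, against 9.66%. In coding genes limited to 1 line, 13.2% of the windows held TATAAA, 5.27% TGACTCA, 53.6% GGGCGG, 33.1% CCAAT and 7.57% CACGTG. A match is a description of these letters and not of a bound site.

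Members were shorter than coding genes, with a median main transcript of 1598 bases against 3047, and 98 of the 142 had 1 listed transcript. Transcripts at more than 1 locus were listed for 4 members, LINC00623, LINC01123 and LINC01296 among them. Of 19 members with several transcripts and at least 1 FPKM in both lines, 14 had the same main transcript in both. In LINC00673 the transcript NR_036488 held 49.1% of the gene's FPKM in H2087 and 72.8% in H596. In LINC01001, NR_146389 held 99.9% in H2087 and 47.3% in H596, although the gene as a whole differed little, at 3.45 and 3.88. Among 132 members with reference transcripts, 11 shared at least 5% of their 31-base words with another member. LINC01106 shared 90.4% with LINC01123 and LINC01001 shared 38.6% with LINC01002, so the split of reads between such genes is uncertain.

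Members were found on most chromosomes. Chromosome 1 held 17, chromosome 3 held 13 and chromosome 2 held 11. As a share of the LINC genes listed, chromosome 7 with 9 of 32 (28.1%) and the X chromosome with 7 of 31 (22.6%) stood high, and chromosome 13 with 3 of 138 (2.17%) and chromosome 8 with 0 of 45 stood low.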

How the data were processed

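Total RNA of untreated H2087 and H596 cells was made into stranded mRNA libraries. Per the labels and the submitters' processing notes, the reads were aligned to hg19 with HISAT2 2.0.5 and abundances were estimated with StringTie 1.3.3b. For genes and transcripts alike, the authors deposited FPKM values and whole-number estimated counts; how the counts were made is not stated. Members were the LINC symbols at an FPKM of at least 1 in either library. The members and lists were chosen with earlier results of these data known. Named genes were the 10 highest members in each library, the 10 highest limited to each line, the 5 largest differences in each direction, the 5 highest members that differed by under 0.26 on the log2 scale, the 5 on either side of the threshold, the listed cancer genes and close coding neighbours. Other limited members, members in divergent pairs, LINC01106, LINC01002, LINC00526, LINC00115, LINC01128 and the neighbours over 10000 bases away were named after their values were seen. Differences are of log2(FPKM + 1). Wilson intervals were computed with scipy 1.17.1 and a limit of 3 counts was used for 0. TMM factors came from edgeR 4.0.16. The total estimated counts set the precision. Strand came from GENCODE release 44 mapped to GRCh37 or from RefSeq. Start regions were read from GRCh37. The 2-fold calls were tried on simulated counts of genes at an FPKM of at least 2 in H2087, without spread between cultures. The intervals were also tried on simulated counts, and the limited calls were not. Alternatives were other thresholds, pseudocounts, filters, scalings, TPM and transcript sums. No test between the lines was possible with 1 library each. The start region of 1 of the highest members is not reported here.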

Additional observations from a re-analysis of the deposited data

How the results depend on the processing

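Of 48 recomputed summary values, 38 stayed close to the main value. For counts this meant within 1.5 times, and for the median difference only a small shift. Direction was not part of this rule, and the balance of higher and lower members turned under TMM scaling and centring. The limited genes, 19 in H2087 and 13 in H596, became 32 and 21 at an FPKM threshold of 0.5, and 12 and 6 at a threshold of 2, which changes how many genes can enter. With TPM, which also changes how many genes can enter, 221 LINC genes were expressed in place of 142 and 22 were limited to H596. At least 2-fold higher in H596 were 59 in place of 36. A neighbour of the same sign was seen for 64 of 108 members that were 2-fold different, in place of 41 of 69. The median member difference was −0.046 under TMM scaling and −0.0063 after centring. Of 255 recomputed values of 51 named genes, 243 stayed on their side of 2-fold in the same direction. LINC01117, LINC01166, LINC01932 and LINC02038 fell below 2-fold after centring, at 0.90 to 0.98. No paired analysis was possible because there is 1 library of each line, and neither could be left out. Depth limits the genes near 0, where 3 counts set the bound.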
